A study of Mus musculus with 9 samples.

Results

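Transport and conversion of glucose and lactate were followed through 9 genes in the medial prefrontal cortex of mice, namely Slc2a1, Slc2a3, Slc16a1, Slc16a7, Bsg, Hk1, Ldha, Ldhb and Ppargc1a. They were taken by symbol as genes of fuel supply, and make up 9 of the 35125 genes with an NCBI identifier in the deposited table of expression values. All 9 passed the filter on low values, which kept 14013 genes. The table held 9 libraries of polyadenylated RNA, 3 in each of 3 groups. The running model carries the term exercise in the labels, and the series description places running in mice exposed to chronic unpredictable stress. The CUS model had chronic unpredictable stress, and the control had no stress. The labels of all 9 libraries carry the terms 4 week and week 8 without saying what each period covers, and strain, sex and age are not stated there. Whether libraries stand for separate animals is not stated either, so p-values measure how these libraries vary, and part of that may be technical.

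Neurons and glia of the cortex live mainly on glucose. GLUT1, the product of Slc2a1, carries glucose across the endothelium of brain vessels and into astrocytes, and GLUT3, the product of Slc2a3, is the main glucose carrier of neurons. Hexokinase 1, from Hk1, phosphorylates glucose and so keeps it in the cell for glycolysis. Lactate dehydrogenase is a tetramer of A subunits (Ldha), which favour the making of lactate from pyruvate, and B subunits (Ldhb), which favour the reverse step. Lactate leaves and enters cells through the monocarboxylate carriers MCT1 (Slc16a1), found on endothelium and glia, and MCT2 (Slc16a7), found mainly on neurons. MCT1 needs basigin, the product of Bsg, to reach the cell membrane. PGC-1alpha, the product of Ppargc1a, is a coactivator of genes for mitochondria that is known for its induction by exercise in muscle.

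The start regions of the lactate dehydrogenase pair and of Slc2a1 are shown because Ldha and Ldhb are compared with each other below and Slc2a1 had the widest spread of the 9 genes. Each stretch is the 150 bases before a gene's first start site in the RefSeq promoter table of GRCm38.p6 (5′ to 3′ on the strand of the gene), with matches to the core of the hypoxia response element (ACGTG on either strand, also where it lies within the E-box CACGTG) and to the cyclic AMP response element (TGACGTCA) in capitals. They lie at chr7:46845654-46845803 on the plus strand for Ldha, chr6:142507958-142508107 on the minus strand for Ldhb and chr4:119108595-119108744 on the plus strand for Slc2a1.
Ldha: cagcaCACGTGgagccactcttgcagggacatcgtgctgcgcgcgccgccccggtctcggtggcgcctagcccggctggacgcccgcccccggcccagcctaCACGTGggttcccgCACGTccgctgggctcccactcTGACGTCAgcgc
Ldhb: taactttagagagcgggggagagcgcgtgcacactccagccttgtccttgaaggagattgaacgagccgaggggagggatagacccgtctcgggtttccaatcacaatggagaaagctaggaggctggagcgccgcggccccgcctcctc
Slc2a1: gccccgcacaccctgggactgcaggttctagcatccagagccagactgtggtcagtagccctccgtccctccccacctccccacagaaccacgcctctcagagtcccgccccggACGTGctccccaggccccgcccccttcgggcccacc
For Ldha the table gives 2 start sites, both inside the span of the gene record given below, and the upstream 1 is printed. It held 3 separate ACGTG stretches, 2 of them within CACGTG, and 1 TGACGTCA. Slc2a1 held 1 ACGTG stretch, and Ldhb held none of these letters. The 250 bases before the other Ldha start site held 0 matches to each of the 3 motifs. Over the 250 bases before 32851 start sites of all genes, 16.6% held ACGTG on either strand, 6.02% held CACGTG and 1.55% held TGACGTCA. RefSeq windows were matched for 6 of the 9 genes, and Slc16a1 and Ppargc1a each had 1 ACGTG stretch in theirs. These matches describe letters only and were not tied to binding.

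The libraries had FPKM sums between 370441 and 423257 and between 17071 and 17280 genes above 0. CUS replicate 3 stood apart from the others, with the highest sum and a first principal component of 28.4, against -10.8 to 8.09 in the other 8. A trend on transcript length and GC content fitted to its deviations from the gene means had an R2 of 0.34, against 0.0183 to 0.138 in the other libraries. Slc17a7, the vesicular glutamate carrier of cortical excitatory neurons, had 704 to 745 FPKM in running, 717 to 768 in CUS and 696 to 737 in control libraries. Tbr1, a transcription factor of deep-layer cortical neurons, had 38.0 to 47.2 FPKM in running, 40.4 to 51.2 in CUS and 44.2 to 50.3 in control libraries. Not all markers of these neurons were as level. Of 10 such markers 4 had higher and 6 lower means in running than in CUS, with 0 called. Camk2a had 891 to 1029 FPKM in running and 824 to 885 in CUS libraries. Fezf2 went the other way, with 23.3 to 31.6 FPKM in running and 32.8 to 37.4 in CUS libraries. Choroid plexus markers summed to 217.8 FPKM in control replicate 3 and to between 7.43 and 41.81 in the other 8 libraries. In bulk tissue fewer cells of a type and less RNA per cell cannot be told apart.

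The 9 genes spanned a wide range of levels, and their levels per length kept nearly the same order in each library. Mean FPKM over the 9 libraries was 356 for Ldhb, 309 for Bsg, 218 for Ldha, 126 for Hk1, 44.2 for Slc2a1, 42.7 for Slc2a3, 6.66 for Ppargc1a, 6.15 for Slc16a1 and 4.25 for Slc16a7. The first 4 lay at or above the 96.1st percentile of the 14013 genes by mean FPKM, and the 3 lowest lay between the 30.9th and the 41.5th. Ldhb was higher than Bsg in 9 of 9 libraries although the ranges overlapped, by a mean ratio of 1.15. Slc2a1 and Slc2a3 did not differ beyond their spread, since Slc2a1 was the higher of the pair in 4 of 9 libraries. Ppargc1a was higher than Slc16a1 in 8 of 9 libraries, by a mean ratio of 1.09. Every other neighbour in this order was lower than the gene before it in 9 of 9 libraries. On the log2 scale the SD within groups was 0.0347 for Bsg, at the 1.25th percentile of all genes, and 0.229 for Slc2a1, at the 90.9th percentile.

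**Figure D1:**
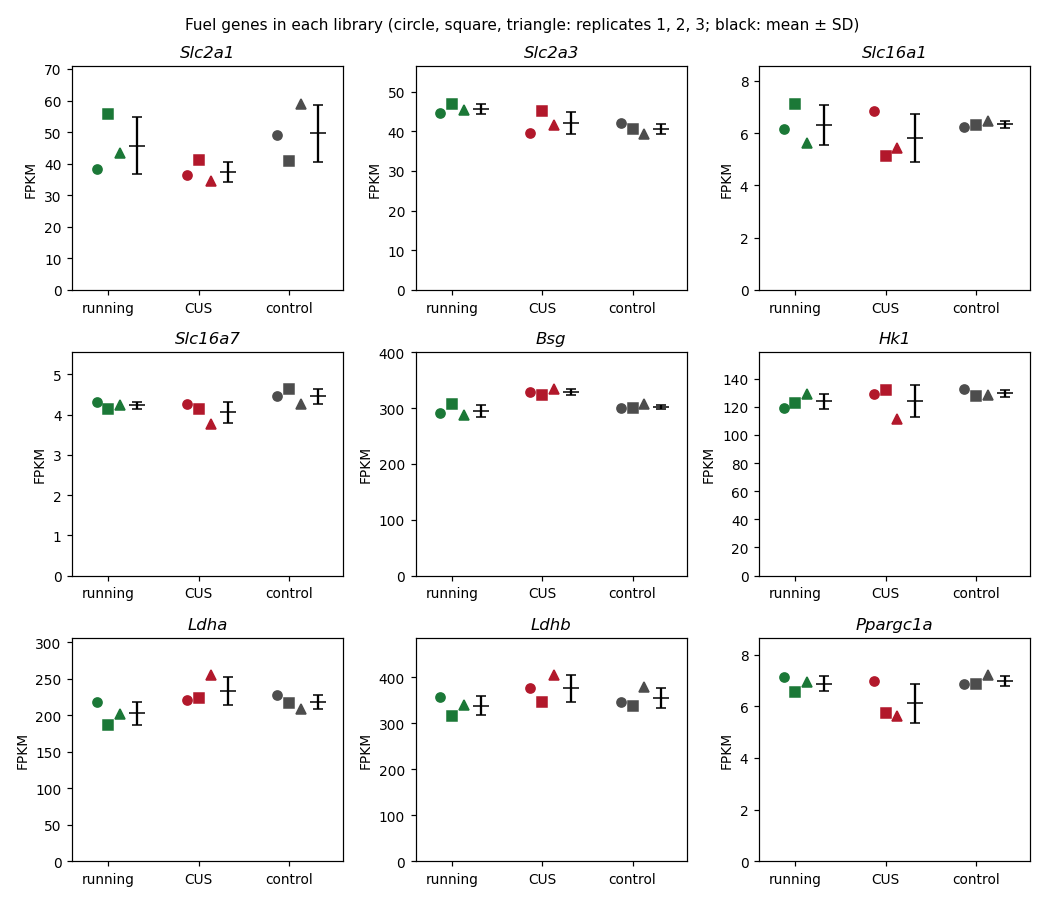
FPKM of the 9 fuel genes in the running, CUS and control libraries, with each replicate as a point and the mean ± SD in black on axes that start at 0. Bsg was higher in the 3 CUS libraries (323 to 334) than in the 6 others (287 to 308), and Slc2a1 had the widest scatter, from 34.6 to 59.0.

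Differences between groups were tested with limma on log2(FPKM + 0.5) in 1 model of all 9 libraries, with adjustment over the 14013 genes, and calls needed an adjusted p under 0.05. None of the 9 fuel genes was called in any of the 3 comparisons. The calls over all genes were as rare, at 0.00714% of genes for running against CUS, 0.00714% for CUS against control and 0.0214% for running against control. At an unadjusted p under 0.05, 2 of the 9 passed for running against CUS (Ldha and Bsg, both lower), where 23.5% of all genes did and 15.7% were lower. For CUS against control 1 passed (Slc2a1, lower), where 14.7% of all genes did and 5.79% were lower. For running against control 1 passed (Slc2a3, higher), where 11.6% did and 5.15% were higher. The share among the fuel genes was near that of all genes in each comparison when both directions were counted. The 3 comparisons share groups, so their values for a gene are not independent of one another.

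**Figure D2:**
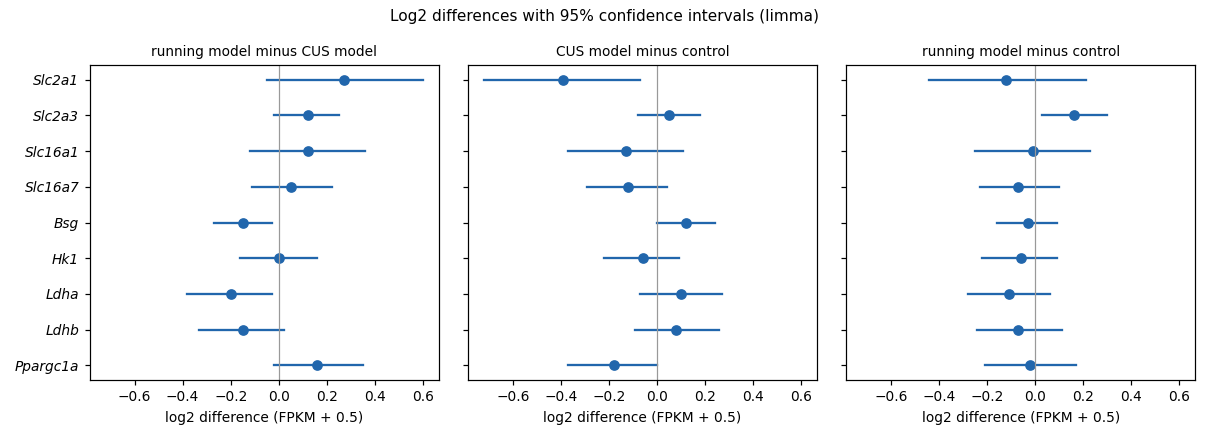
Log2 differences of the 9 fuel genes on the log2(FPKM + 0.5) scale in the 3 comparisons, with points for the limma estimate and lines for its 95% confidence interval. The widest intervals belong to Slc2a1, and the largest estimate is that of Slc2a1 between CUS and control, at -0.39.

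Among the glucose carriers, Slc2a1 (chr4:119108745-119137330) was lower on average in CUS than in the other groups but varied strongly between libraries. It had 38.4, 55.6 and 43.3 FPKM in running, 36.5, 41.1 and 34.6 FPKM in CUS, and 49.0, 40.8 and 59.0 FPKM in control libraries. CUS replicate 2 lay just above control replicate 2, so the CUS and control groups overlapped, and running replicate 2 and control replicate 3 were the highest of all. Slc2a1 averaged 37.4 ± 3.30 FPKM in CUS and 49.6 ± 9.10 FPKM in control libraries (SD, n = 3 each), a log2 difference of -0.39 (95% CI -0.72 to -0.07, unadjusted p = 0.0227, limma adjusted p = 0.295). Running libraries averaged 45.8 ± 8.88 FPKM, a log2 difference from CUS of 0.27 (95% CI -0.05 to 0.60, limma adjusted p = 0.281) and from control of -0.12 (95% CI -0.44 to 0.21). Without control replicate 3 the difference between CUS and control was -0.26, and without running replicate 2 the difference between running and CUS was 0.13.

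Markers of the cells and tissues that express Slc2a1 also differed between these libraries. The 12 endothelial markers, all above 0 in every library, summed to 120.3 to 149.9 FPKM in running, 128.4 to 149.3 in CUS and 147 to 162.2 in control libraries. Of these 12, 7 had lower means in running than in CUS, 9 in CUS than in control (median log2 difference -0.21) and 12 in running than in control (median -0.23), with 0 called in any comparison. Over all genes the share with higher means was 42.2% for running against CUS, 55.9% for CUS against control and 43.8% for running against control. The 10 astrocyte markers, also above 0 throughout, summed to 534.5 to 626.2 FPKM in running, 516 to 565.6 in CUS and 564 to 627.6 in control libraries. Of the astrocyte markers 8 of 10 had higher means in running than in CUS and 9 of 10 lower means in CUS than in control. Of 9 mural cell markers, 9 had lower means in CUS than in control and 8 in running than in control. Control replicate 3, the library with the most Slc2a1, was also the one with 217.8 FPKM of choroid plexus markers, of which Ttr alone made 212. Its 12 myelin markers summed to 1218 FPKM, against 500.9 to 734.1 in the other 8 libraries. Of these 12, 11 had lower means in CUS than in control (median log2 difference -0.40) and 12 in running than in control (median -0.44), with 0 called. The part of these cells in the Slc2a1 values was not tested.

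The genes whose profile over the 9 libraries came nearest to that of Slc2a1 were Ccdc141, Acer2, an alkaline ceramidase, and Notch4, a Notch receptor of endothelium. Their centred log2 values differed from those of Slc2a1 by a root mean square of 0.0973, 0.0994 and 0.101, against a median of 0.28 over 12343 candidate genes. Ccdc141 had 2.52, 3.65 and 2.76 FPKM in running, 2.17, 2.30 and 1.89 FPKM in CUS, and 3.31, 2.58 and 3.22 FPKM in control libraries. Like Slc2a1 it was highest of the running libraries in replicate 2 and lowest of the controls in replicate 2. This likeness follows from its choice as a nearest profile.

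**Figure D3:**
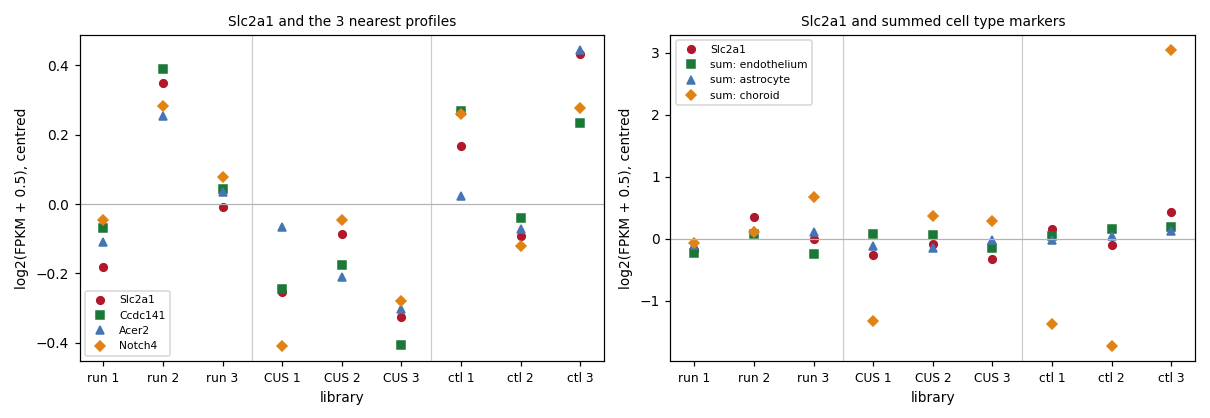
Centred log2(FPKM + 0.5) of Slc2a1 in the 9 libraries beside its 3 nearest genes (left) and beside the summed markers of endothelium, astrocytes and choroid plexus (right). The 3 nearest genes, chosen for a profile like that of Slc2a1, are also highest among the running libraries in replicate 2. The choroid plexus sum stands apart in control replicate 3.

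Slc2a3 (chr6:122727809-122802363), the neuronal glucose carrier, was the 1 fuel gene whose running libraries all lay above the control libraries. It had 44.5, 46.9 and 45.2 FPKM in running, 39.6, 45.0 and 41.5 FPKM in CUS, and 42.0, 40.5 and 39.4 FPKM in control libraries. The highest CUS library lay within the running range. Running averaged 45.6 ± 1.25 FPKM and control 40.6 ± 1.31 FPKM (SD, n = 3 each), a log2 difference of 0.16 (95% CI 0.03 to 0.30, unadjusted p = 0.0194, limma adjusted p = 0.331). Over all genes 10.5% had running libraries that all lay above the control libraries. The difference from CUS was 0.12 (95% CI -0.02 to 0.25), and 0.03 after removal of the trend on length and GC content. The ratio of Slc2a1 to Slc2a3 within a library, which a common scaling leaves unchanged, was 0.862, 1.18 and 0.957 in running, 0.921, 0.912 and 0.835 in CUS, and 1.17, 1.01 and 1.5 in control libraries. The 3 CUS ratios lay below the 3 control ratios, a mean log2 difference of -0.44 (two-sided exact permutation p = 0.1, the smallest that 3 against 3 can give, and 0.9 adjusted over the 9 ratio comparisons made). Without control replicate 3 this difference was -0.28.

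Hk1 (chr10:62268855-62379920) was close to level across the groups. It had 119, 123 and 129 FPKM in running, 129, 132 and 111 FPKM in CUS, and 132, 128 and 129 FPKM in control libraries. CUS replicate 3 was the lowest of the 9, and the groups overlapped in each comparison. For running against CUS the 95% CI was -0.16 to 0.16. With the deposited scaling only, a change of more than 0.16 in either direction lies outside this interval. The log2 difference itself was 0.00. Between CUS and control it was -0.06 (95% CI -0.22 to 0.09), and between running and control also -0.06 (95% CI -0.22 to 0.09). Its direction between running and CUS changed with scaling, at 0.10 after rescaling to TPM and 0.09 with quantile normalization. The median over all genes was -0.033 with the deposited scaling, 0.062 with TPM and -0.002 with quantile normalization.

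Of the lactate dehydrogenase pair, Ldha (chr7:46842274-46855627) was lower in running than in CUS in every pair of libraries but did not pass the adjusted threshold. It had 218.5, 187 and 202 FPKM in running, 221, 224 and 255 FPKM in CUS, and 228, 216 and 209 FPKM in control libraries. The highest running library lay just under the lowest CUS library, and CUS replicate 3 was the highest of all. Running averaged 202 ± 15.6 FPKM and CUS 233 ± 18.9 FPKM (SD, n = 3 each), a log2 difference of -0.20 (95% CI -0.38 to -0.03, unadjusted p = 0.0236, limma adjusted p = 0.153). Over all genes 15.9% had running libraries that all lay below the CUS libraries. The difference was -0.14 without CUS replicate 3, -0.10 after rescaling to TPM, -0.03 with quantile normalization and -0.08 in the fit without the length and GC trend. Rescaling to TPM also moved the median over all genes, from -0.033 to 0.062. The 10 microglial markers, of which 10 had lower means in running than in CUS (median log2 difference -0.17, 0 called), summed to 205.4 to 221 FPKM in running, 220.6 to 274.5 in CUS and 218.7 to 242.6 in control libraries. Of 8 meningeal markers, 7 had lower means in running than in CUS (median log2 difference -0.32, 0 called). The 8 inhibitory neuron markers summed to 686 to 742.6 FPKM in running and 788.1 to 884.5 in CUS libraries. Most of this sum was Sst, with 441 to 495 FPKM in running and 547 to 653 in CUS libraries. Of the 8 markers, 5 had higher and 3 lower means in running than in CUS (median log2 difference 0.04, 0 called). Other lists went the opposite way to Ldha between running and CUS. Of the markers, 8 of 10 for astrocytes, 7 of 12 for myelin and 5 of 5 for blood had higher means in running, with 0 called. The part of any of these cells and tissues in the Ldha difference was not tested. Ldha in CUS differed from control by 0.10 (95% CI -0.07 to 0.27) and running from control by -0.11 (95% CI -0.28 to 0.06).

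Ldhb (chr6:142490249-142507957) showed differences of like sign and smaller size. It had 358, 316 and 341 FPKM in running, 377, 346 and 405 FPKM in CUS, and 347, 338 and 379 FPKM in control libraries. The groups overlapped in each comparison, and CUS replicate 3 was again the highest library. The log2 difference between running and CUS was -0.15 (95% CI -0.33 to 0.02, limma adjusted p = 0.268), and 0.02 with the length and GC trend removed. CUS differed from control by 0.08 (95% CI -0.09 to 0.26). Ldhb was the more abundant subunit transcript in every library. The ratio of Ldha to Ldhb was 0.611, 0.593 and 0.591 in running, 0.587, 0.647 and 0.630 in CUS, and 0.656, 0.641 and 0.551 in control libraries. These ranges overlapped, with a mean log2 difference of -0.05 between running and CUS (two-sided exact permutation p = 0.4, 0.9 adjusted over 9) and 0.02 between CUS and control (exact permutation p = 0.9, 1 adjusted over 9). The genes nearest in profile to Ldha were Prpsap2, which binds phosphoribosyl pyrophosphate synthetase, Atp6v0d1, a subunit of the vacuolar proton pump, and Ift22, at root mean square differences of 0.0327, 0.0339 and 0.0379, against a median of 0.152 over the candidates. All 3 were highest in CUS replicate 3, as Ldha was, a likeness that follows from their choice by profile.

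**Figure D4:**
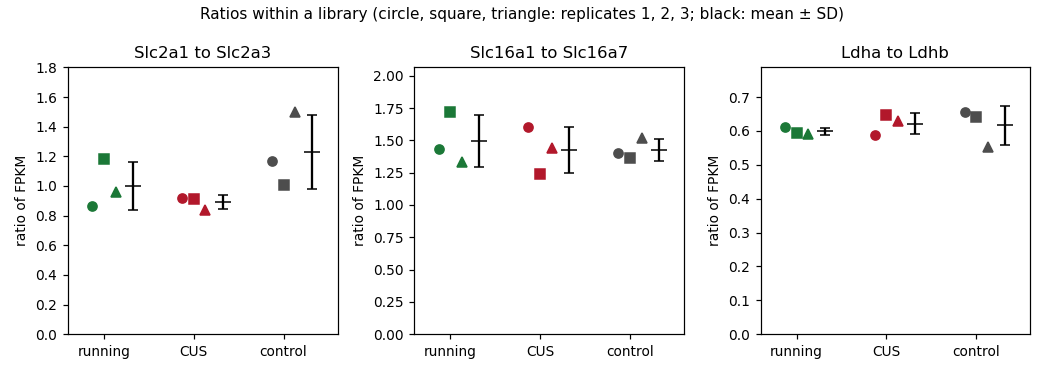
Ratios of FPKM within each library for the glucose carriers, the monocarboxylate carriers and the lactate dehydrogenase subunits, with replicates as points and mean ± SD in black. The Slc2a1 to Slc2a3 ratio of the CUS libraries (0.835 to 0.921) lies below that of the control libraries (1.01 to 1.5), and the ranges of the other pairs overlap.

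Among the lactate carriers and their chaperone, Bsg (chr10:79704358-79711979) had the tightest values and was the 1 fuel gene whose CUS libraries lay above those of both other groups. It had 292, 308 and 287 FPKM in running, 328, 323 and 334 FPKM in CUS, and 301, 300.4 and 307 FPKM in control libraries. Running and control libraries overlapped with each other. The log2 difference between running and CUS was -0.15 (95% CI -0.27 to -0.03, unadjusted p = 0.0195, limma adjusted p = 0.141). Between CUS and control it was 0.12 (95% CI 0.00 to 0.24, unadjusted p = 0.0579, limma adjusted p = 0.350). Over all genes 12.1% had CUS libraries that all lay above the control libraries, and 15.9% had running libraries that all lay below the CUS libraries. The share of all genes with both was not computed. Without CUS replicate 3 these differences were -0.14 and 0.11. They depended on scaling, at -0.05 and 0.05 after rescaling to TPM, -0.01 and 0.07 with the length and GC trend removed, and 0.013 and -0.0027 with quantile normalization, where both signs turned. With TPM the medians over all genes in these comparisons moved as well, from -0.033 to 0.062 and from 0.022 to -0.041. Blood markers, from a tissue whose red cells carry basigin, summed to 972.4 to 1238 FPKM in running, 682.8 to 1040 in CUS and 493.1 to 874.6 in control libraries, and their part in the Bsg values was not tested. With library quality weights, which gave CUS replicate 3 a weight of 0.244, Bsg was called lower in running than in CUS (log2 difference -0.16, limma adjusted p = 0.0342), in a fit that called 2178 of the 14013 genes.

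The monocarboxylate carriers were among the least abundant of the 9. Slc16a1 (chr3:104638664-104658462) had 6.18, 7.13 and 5.64 FPKM in running, 6.85, 5.13 and 5.42 FPKM in CUS, and 6.24, 6.30 and 6.48 FPKM in control libraries. Its control values were tight, and the running and CUS values spread to both sides of them. The log2 differences were 0.12 between running and CUS (95% CI -0.12 to 0.36), -0.13 between CUS and control (95% CI -0.37 to 0.11) and -0.01 between running and control (95% CI -0.25 to 0.23). Its nearest profiles were those of Wipi1, an autophagy protein, Sike1 and Fermt3, an integrin activator of blood cells, at root mean square differences of 0.0678, 0.0694 and 0.0704, against a median of 0.178. Slc16a7 (chr10:125219270-125389586) had 4.31, 4.15 and 4.23 FPKM in running, 4.27, 4.14 and 3.77 FPKM in CUS, and 4.47, 4.63 and 4.26 FPKM in control libraries. CUS replicate 3 was the lowest, and 1 CUS library lay just within the control range. The difference between CUS and control was -0.12 (95% CI -0.29 to 0.04), and that between running and CUS was 0.05 (95% CI -0.11 to 0.22). The ratio of Slc16a1 to Slc16a7 averaged 1.5 ± 0.200 in running, 1.43 ± 0.183 in CUS and 1.43 ± 0.0843 in control libraries (SD, n = 3 each), with exact permutation p of 0.7 for running against CUS and 1 for CUS against control (0.9 and 1 adjusted over 9).

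Ppargc1a (chr5:51454249-52115853), the coactivator, was lower in 2 of the 3 CUS libraries. It had 7.15, 6.56 and 6.92 FPKM in running, 6.97, 5.74 and 5.63 FPKM in CUS, and 6.87, 6.86 and 7.21 FPKM in control libraries. CUS replicate 1 lay within the range of both other groups. The log2 difference was 0.16 between running and CUS (95% CI -0.02 to 0.35, limma adjusted p = 0.268) and -0.18 between CUS and control (95% CI -0.37 to 0.00, limma adjusted p = 0.344). Between running and control it was -0.02 (95% CI -0.21 to 0.17). Without CUS replicate 1 the differences were 0.25 and -0.27, and without CUS replicate 3 they were 0.11 and -0.13.

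The other genes of fuel use were read from 6 lists and the lactate receptor, and 0 of their measured members were called in any comparison. Genes beyond the 3 most abundant of a list were named because groups did not overlap at a log2 difference of 0.3 or more. That lack of overlap is thus the rule of choice and not a result. Over all genes 15.9% lay without overlap below CUS in running, and 10.5% above control in running. The share is not given for running above CUS or for either group below control. How common such separation is among all genes cannot be read there, and the next shares are of another measure. At an unadjusted limma p under 0.05, 23.5% of all genes passed for running against CUS. For CUS against control 14.7% did, and for running against control 11.6%. With library quality weights 6 of the named genes were called for running against CUS, in the fit that called 2178 of the 14013 genes. They were Mpc1, Pdp1, Ppp1r3c, Ppara, Hif1an and Mlxip (limma adjusted p between 0.0117 and 0.0491). Without CUS replicate 2, which left 1518 genes called, Mpc1, Hif1an and Mlxip were called (limma adjusted p between 0.0267 and 0.0331). All 6 genes had met the rule of no overlap in this comparison, so their calls in these fits are no separate support. Of the 13 glycolytic enzymes after hexokinase, 13 lay below 0 for running against CUS, at a median log2 difference of -0.13, although 8 of 13 were lower after rescaling to TPM, 10 of 13 with the length and GC trend removed and 3 of 13 with quantile normalization. The median over all genes was -0.03, and 42.2% of all genes were higher. That median was itself 0.062 after rescaling to TPM, -0.008 with the length and GC trend removed and -0.002 with quantile normalization. The shift with TPM was thus shared by genes outside the list. Gapdh, which oxidises glyceraldehyde phosphate, averaged 2350 ± 103 FPKM in running and 2750 ± 157 FPKM in CUS (SD, n = 3 each), a log2 difference of -0.23 (limma adjusted p = 0.153), which was 0.08 with quantile normalization. Aldoa, the muscle-type aldolase, differed by -0.17, and by -0.07 with TPM, -0.04 with quantile normalization and -0.03 with the length and GC trend removed. Pkm, pyruvate kinase, differed by -0.06. In CUS against control 12 of the 13 were higher, with a median of 0.08 beside 0.02 over all genes. In running against control 12 of the 13 were lower, with a median of -0.05 beside -0.02.

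A further list held other carriers, their partners and the hexokinase gene Hk2. Of its 13 measured genes, 9 were lower in running than in CUS (median -0.07), 7 lower in CUS than in control (median -0.03) and 11 lower in running than in control (median -0.07). Nptn, which encodes neuroplastin, an alternative partner of monocarboxylate carriers, was the most abundant, at 304 ± 15.3 FPKM in running, 318 ± 23.5 in CUS and 302 ± 3.49 in control libraries (SD, n = 3 each). Slc2a13 and Slc45a1, carriers of inositol and of sugar, averaged between 20.8 and 24.1 FPKM in each group. Slc16a3, the lactate carrier MCT4 of astrocytes and muscle, had 0.88, 0.90 and 0.83 FPKM in running, 1.09, 0.88 and 1.14 FPKM in CUS, and 1.79, 1.2 and 1.77 FPKM in control libraries. Its control values did not overlap those of the other groups, at log2 differences of -0.59 for running (unadjusted p = 0.00112, limma adjusted p = 0.149) and -0.43 for CUS (limma adjusted p = 0.267). Slc2a4, the insulin-responsive carrier GLUT4, had 0.47, 0.49 and 0.52 FPKM in running, 0.47, 0.45 and 0.41 FPKM in CUS, and 1.64, 0.66 and 0.65 FPKM in control libraries. Slc2a4 passed the filter minimum of 0.5 FPKM through its control libraries, and of the others only running replicate 3 reached it. Its differences from control are thus described only and lend no support. They were -0.51 for running and -0.59 for CUS on the log2 scale (limma adjusted p = 0.391 and 0.282), and without control replicate 1 they were -0.22 and -0.29.

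Among 14 genes of pyruvate entry into mitochondria, 11 were lower in running than in CUS (median -0.07), 9 were higher in CUS than in control (median 0.06), and 7 were higher and 7 lower in running than in control (median -0.02). Mpc1, a subunit of the mitochondrial pyruvate carrier, had 115, 102 and 104 FPKM in running and 135, 117 and 164 FPKM in CUS libraries. The groups did not overlap (log2 difference -0.36, limma adjusted p = 0.0963), and the difference was -0.23 without CUS replicate 3 and -0.14 with the length and GC trend removed. Pdp1, the phosphatase that activates pyruvate dehydrogenase, had 39.4, 40.2 and 46.5 FPKM in running, 26.8, 28.8 and 37.4 FPKM in CUS, and 33.8, 30.7 and 33.4 FPKM in control libraries. Running lay above both other groups, at log2 differences of 0.44 from CUS (limma adjusted p = 0.0852) and 0.36 from control (limma adjusted p = 0.277), and the first was 0.48 with the length and GC trend removed. Pdha1 and Pdhb, subunits of pyruvate dehydrogenase, averaged between 68.5 and 80.6 FPKM in each group.

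Of 14 glycogen genes, 8 were lower in running than in CUS (median -0.02), 8 higher in CUS than in control (median 0.02) and 10 lower in running than in control (median -0.01). Ppp1r3c, which targets a phosphatase to glycogen, had 14.7, 17.8 and 16.6 FPKM in running and 12.2, 11.3 and 13.04 FPKM in CUS libraries, without overlap (log2 difference 0.41, limma adjusted p = 0.0776). Pygm, the muscle form of glycogen phosphorylase that astrocytes also make, had 9.26, 10.1 and 9.19 FPKM in running, 9.21, 9.28 and 9.88 FPKM in CUS, and 23.4, 11.4 and 14.3 FPKM in control libraries. The control values lay above all others, at log2 differences of -0.69 for running and -0.70 for CUS (limma adjusted p = 0.236 and 0.253), and without control replicate 1 these were -0.41 and -0.42. Pygb, the brain form of the same enzyme, averaged 46.2 ± 1.91 FPKM in running, 44.6 ± 3.39 in CUS and 44.0 ± 2.24 in control libraries (SD, n = 3 each), and Phkg2 and Ugp2 averaged between 24.7 and 37.7 FPKM in each group.

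Of 17 genes linked to PGC-1 coactivators, 9 were higher in running than in CUS (median 0.05), 12 higher in CUS than in control (median 0.06) and 12 higher in running than in control (median 0.06). Ppara, a nuclear receptor of fatty acid use, had 0.89, 1.30 and 0.97 FPKM in running and 0.66, 0.73 and 0.65 FPKM in CUS libraries, a log2 difference of 0.39 without overlap (limma adjusted p = 0.113). Mef2c, Mef2d and Sirt3 were the most abundant of the list, at 124, 69.6 and 31.0 FPKM in running, 132, 59.4 and 36.2 FPKM in CUS, and 127, 62.4 and 32.7 FPKM in control libraries on average. Of 15 measured genes of hypoxia and glucose sensing, 9 were higher in running than in CUS (median 0.04), 9 lower in CUS than in control (median -0.03) and 11 higher in running than in control (median 0.06). Mlxip, a glucose-sensing transcription factor, had 5.46, 6.14 and 5.69 FPKM in running, 4.56, 5.03 and 3.97 FPKM in CUS, and 4.74, 4.56 and 4.27 FPKM in control libraries. Running lay above both other groups, at a log2 difference of 0.32 in each comparison (limma adjusted p = 0.0937 against CUS and 0.250 against control). Hif1an, the asparagine hydroxylase that inhibits HIF-1, and Adm, the adrenomedullin precursor, were higher in running than in CUS without overlap, at log2 differences of 0.32 (limma adjusted p = 0.0924) and 0.43 (limma adjusted p = 0.129). Epas1, the HIF-2 subunit abundant in endothelium, and Txnip, an inhibitor of glucose uptake, were lower in CUS than in control without overlap, at log2 differences of -0.37 and -0.35 (limma adjusted p = 0.267 and 0.286), and without CUS replicate 3 that of Epas1 was -0.24. Arrdc4, a relative of Txnip, was lower in running than in control, at a log2 difference of -0.36 (limma adjusted p = 0.415). Bnip3, Egln1 and Egln2 averaged between 29.3 and 70.0 FPKM in each group. Hcar1, the lactate receptor, averaged 0.383 ± 0.203 FPKM in running, 0.330 ± 0.252 in CUS and 0.377 ± 0.202 in control libraries (SD, n = 3 each). These means lie below the filter minimum of 0.5 FPKM. Only the highest library of each group reached it, at 0.61 in running, 0.62 in CUS and 0.56 in control.

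**Figure D5:**
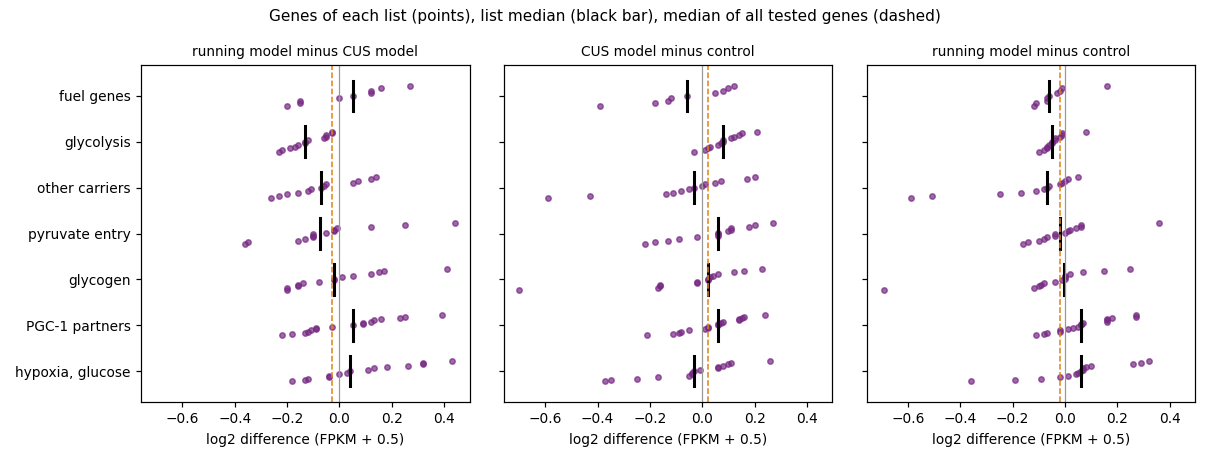
Log2 differences on the log2(FPKM + 0.5) scale of the 9 fuel genes and of the members of 6 related lists in the 3 comparisons, with a black bar for each list's median and a dashed line for the median of all tested genes. The glycolytic enzymes all lie below 0 for running against CUS, at a median of -0.13 that rescaling to TPM moves to -0.03 and quantile normalization to 0.03. The same steps move the median of all tested genes from -0.033 to 0.062 and to -0.002.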

How the data were processed

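RNA of the medial prefrontal cortex was sequenced in 9 libraries of 3 groups. Per the labels' protocols, oligo(dT) beads enriched polyadenylated RNA and random hexamers primed the cDNA, with no step that marks strand, so overlapping and antisense genes may share reads. Bowtie2 2.2.5, RSEM 1.2.12, DESeq2 1.4.5 and build mm10 are named, per the submitters' processing notes, with no statement of what each tool did. Expression values were deposited by the authors as FPKM (fragments scaled to transcript length and to the mapped fragments of a library) with 2 decimals. Their read depth is unknown, so counting intervals could not be given. Of 65389 rows in the deposited table, 35125 had an NCBI gene identifier.

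Values were analysed as log2(FPKM + 0.5), a scale that understates fold changes of low genes, after a filter that kept genes at 0.5 FPKM or more in 3 or more libraries. A limma model (limma 3.58.1, R 4.3.3) with 3 group means, 6 residual degrees of freedom and a variance trend was fitted to the 14013 kept genes, with Benjamini-Hochberg adjustment over them, and the code was tested on simulated data. Replicates were numbered in order of listing. Ratios within a library were compared with two-sided exact permutation tests. Beside the 9 genes the text names, per list, the 3 most abundant members and those without overlap between groups at a log2 difference of 0.3 or more, and for the 3 most variable fuel genes the 3 genes nearest in profile (mean of 1 FPKM or more, no predicted, Riken or Y-linked gene). The members and lists were chosen with earlier results of these data known. Alternatives were other pseudocounts, filters, scalings, weights, variance models and sets of libraries. After seeing the data, removal of a trend on transcript length and GC content (GENCODE M21 values for 13766 genes) and the omission of both CUS replicate 3 and control replicate 3 were added. Gene positions come from the RefSeq table of GRCm38.p6, on which mm10 is based.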

Additional observations from a re-analysis of the deposited data

How the results depend on the processing

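With 3 libraries a group an exact test cannot give a p under 0.1, and with unknown depth the counting error of low genes cannot be estimated. The count of fuel genes called was 0 in all 3 comparisons under each alternative, except for 1 (Bsg) in running against CUS with library quality weights. No paired analysis was possible because the replicate numbers were given in order of listing and mark no shared animal or batch.

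For running against CUS the count of genes called, 1 of 14013, was 0 without a filter on low values, 3 after rescaling to TPM, 2 with quantile normalization, 2178 with library quality weights, 15 with only the libraries of both groups, 0 with the length and GC trend removed and 0 with CUS replicate 3 and control replicate 3 left out. For CUS against control it was 1, and was 0 with a minimum of 1 FPKM, 8 with library quality weights, and 0 both with the length and GC trend removed and with those 2 libraries left out. For running against control it was 3, and was 1 without a filter, 147 with library quality weights, 24 with only the libraries of both groups, 7 without a variance trend and 9 with the length and GC trend removed. Leaving out 1 library at a time gave 0 to 1518 for running against CUS, with 1518 without CUS replicate 2, 21 without control replicate 2 and 0 without any 1 of the other 7. It gave 1 to 6 for CUS against control, with 6 without control replicate 2 and 2 without control replicate 1 or CUS replicate 2. It gave 1 to 10 for running against control, with 10 without CUS replicate 1 or 3, 7 without CUS replicate 2 or control replicate 1 and 1 without any of the other 5. The cause was not tested.

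Rescaling to TPM moved the median log2 difference over all genes. It went from -0.033 to 0.062 for running against CUS and from 0.022 to -0.041 for CUS against control. For running against control it went from -0.019 to 0.015. Small log2 differences changed sign. For running against CUS these were Hk1 (0.10 with TPM, 0.092 with quantile normalization), Bsg (0.013 with quantile normalization), Slc16a1 (-0.070 with library quality weights), Slc16a7 (-0.054) and Ldhb (0.015) with the length and GC trend removed, Gapdh (0.083 with quantile normalization) and Pkm (0.044 with TPM, 0.10 with quantile normalization, 0.011 with the trend removed). For CUS against control they were Slc2a3 (-0.018 with TPM, -0.0081 with quantile normalization, -0.0058 with weights), Ldhb (-0.0099) and Bsg (-0.0027) with quantile normalization, Slc16a1 (0.021 with weights) and Hk1 (0.0082 with both libraries left out). For running against control they were Slc16a1 (0.023), Bsg (0.0012) and Ppargc1a (0.013) with TPM, Bsg (0.010) with quantile normalization, Ldhb (0.021) and Bsg (0.060) with the trend removed, and Slc2a1 (0.015), Slc16a1 (0.0041) and Ppargc1a (0.0015) with both libraries left out.

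Leaving out 1 library at a time turned the sign in these ranges. Hk1 spanned -0.078 to 0.047 for running against CUS and -0.11 to 0.013 for CUS against control, and Slc2a3 spanned -0.0022 to 0.089 for CUS against control. For running against control Slc2a1 spanned -0.26 to 0.015, Slc16a1 -0.095 to 0.062 and Ppargc1a -0.047 to 0.011. The Ldha to Ldhb log2 ratio spanned -0.063 to 0.062 for CUS against control and -0.12 to 0.010 for running against control. The Slc16a1 to Slc16a7 log2 ratio spanned -0.033 to 0.15 for running against CUS, -0.091 to 0.081 for CUS against control and -0.041 to 0.13 for running against control.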
